A study of Mus musculus with 3 samples.

Results

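The genes described are 9 that make, break down, carry or answer retinoic acid: Aldh1a1, Aldh1a2, Aldh1a3, Cyp26a1, Cyp26b1, Rarb, Crabp1, Crabp2 and Stra6. They were chosen by name, and 11 of the 39429 non-control probes on the array mapped to them through the RefSeq accession in the probe annotation, out of 32176 genes or unnamed transcripts in all. RNA of Hopx-/- (null) embryoid bodies was compared with RNA of Hopx+/- (heterozygous) embryoid bodies at day 8 of cardiac differentiation, on 3 Agilent 2-colour mouse arrays that each carried both genotypes as 1 of 3 biological replicates. Hopx is a small homeodomain protein of the developing heart, and the series asked about its part in muscle commitment. Heterozygous cultures are the control, so both groups lack at least 1 working copy of Hopx. The labels state no number of stem cell lines per genotype, so genotype and cell line cannot be told apart. A p-value here reflects only the spread over these 3 arrays, which limma moderates with the spread of all probes tested.

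Both groups had the same handling. Stem cells were derived from blastocysts at embryonic day 3.5 on STO feeder cells with a MEK1 inhibitor at 50 µM, and were later kept on inactivated embryonic fibroblasts with LIF. Embryoid bodies, which are aggregates that form derivatives of several germ layers, were formed in hanging drops of 20 µl for 2 days, kept in suspension for 2 days and then plated in medium with VEGF (5 ng/ml), bFGF (10 ng/ml), FGF10 (12.5 ng/ml), ascorbic acid (1 mM) and Glutamax (2 mM). Media before plating held fetal bovine serum. No retinoid is among the additions the labels name.

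Retinoic acid is made from retinol (vitamin A) in 2 oxidation steps, is held in the cytoplasm by the binding proteins Crabp1 and Crabp2, acts through heterodimers of RAR and RXR nuclear receptors on DNA, and is degraded by Cyp26 enzymes. In the embryo its source and sinks lie in different tissues, so that cells read a graded signal. In the heart it is known for its role at the venous pole, in atrial identity and in the epicardium. Rarb and Cyp26a1 are textbook direct targets, each with a retinoic acid response element near its start, and are often read as reporters of the signal.

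To show that element, promoter windows of RefSeq on build GRCm38.p6 (250 bases before to 50 after each annotated start) were searched for a direct repeat with 5 bases between its hexamers (DR5). Accepted as either hexamer were the consensus AGGTCA and its variants, namely AGTTCA as well as GGTTCA and also GGGTCA, both in the same orientation, on either strand. Windows were found for 7 of the 9 genes, which leaves Aldh1a3 and Crabp2 without. The repeat was in 32 of 32851 windows (0.0974%), and 2 of the 7 genes, Rarb and Cyp26a1, held it. The 250 bases before the start are printed for both, with the repeat in capitals, and for Aldh1a2, the member with the largest ratio, which had no match in its window and so has no capitals. They lie at chr14:16575477-16575726 on the minus strand (Rarb), chr19:37697558-37697807 on the plus strand (Cyp26a1) and chr9:71215539-71215788 on the plus strand (Aldh1a2), each read 5′ to 3′ along its gene.
Rarb: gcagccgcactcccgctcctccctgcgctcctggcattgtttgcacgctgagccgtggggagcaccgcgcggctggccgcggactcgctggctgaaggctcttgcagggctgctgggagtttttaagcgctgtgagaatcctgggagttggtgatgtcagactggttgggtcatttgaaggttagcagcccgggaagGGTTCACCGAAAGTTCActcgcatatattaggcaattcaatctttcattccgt
Cyp26a1: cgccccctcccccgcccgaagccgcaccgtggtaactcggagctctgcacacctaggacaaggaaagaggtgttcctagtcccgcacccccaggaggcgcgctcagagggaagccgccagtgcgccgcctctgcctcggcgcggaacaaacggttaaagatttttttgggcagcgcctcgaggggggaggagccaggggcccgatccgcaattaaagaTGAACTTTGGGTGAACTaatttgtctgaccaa
Aldh1a2: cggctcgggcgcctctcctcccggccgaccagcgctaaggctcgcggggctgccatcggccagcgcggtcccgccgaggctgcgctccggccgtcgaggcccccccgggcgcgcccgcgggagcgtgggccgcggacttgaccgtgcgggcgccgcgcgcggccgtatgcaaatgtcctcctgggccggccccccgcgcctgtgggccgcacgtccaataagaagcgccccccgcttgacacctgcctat

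The Rarb repeat, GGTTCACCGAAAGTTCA, spans positions -53 to -37 counted from the annotated start and reads along the gene. The Cyp26a1 repeat spans -32 to -16 and reads on the opposite strand, as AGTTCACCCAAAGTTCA. The stretch before Aldh1a2 is richer in G and C, at 77.6%, against 58.0% for Rarb and 61.6% for Cyp26a1. A match describes letters in this window and shows no binding.

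All ratios below are log2 of null over heterozygous, with replicate 3 turned, because it ran against the others although each array has Cy5 on the null RNA by its label. Across spots, which are not independent replicates, the scanned ratios of replicate 3 had r = -0.88 to replicate 1 and -0.84 to replicate 2, and those of replicates 1 and 2 had r = 0.91. In the authors' deposited table replicate 3 runs against its scanner ratios, and that direction was taken, which no label settles. Hopx itself fell by 3.13 (SE 0.11, n = 3 arrays, limma adjusted p = 2.84e-07), with array values of -2.98, -2.97 and -3.45. In null cultures its 2 probes still exceeded background on every array, and whether they lie in the disrupted stretch is not stated in the labels. Between 61.9% and 72.9% of spots in a channel were well above background, and precision is limited by having 3 arrays.

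In null embryoid bodies Aldh1a2, the enzyme that makes most retinoic acid in the early embryo, rose by 2.51 on the log2 scale, a 5.69-fold higher signal. Crabp2 and Cyp26b1 rose far less, by 0.40 and 0.38, and the receptor gene Rarb fell by 0.50. Aldh1a1, Cyp26a1, Crabp1 and Stra6 did not pass the test (limma, adjusted p under 0.05 over 24552 probes), and Aldh1a3 was too dim to be tested. So 4 of the 8 genes tested were called, 3 higher and 1 lower, beside 60.3% of the 19802 genes tested on the array, 30.2% higher and 30.1% lower. A call is thus common on these arrays, and the count of calls is not a result about these genes. Past 2-fold stood 1 of the 8, Aldh1a2, beside 10.9% of all genes tested in either direction and 4.87% higher. The median of the 8 was 0.09, beside 0.0034 for all genes, and the median size of change without its sign was 0.30, beside 0.33. The same 4 members were called in the same directions from replicates 1 and 2 without replicate 3, at 2.60 for Aldh1a2, 0.43 for Crabp2, 0.40 for Cyp26b1 and -0.64 for Rarb.

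**Figure D1:**
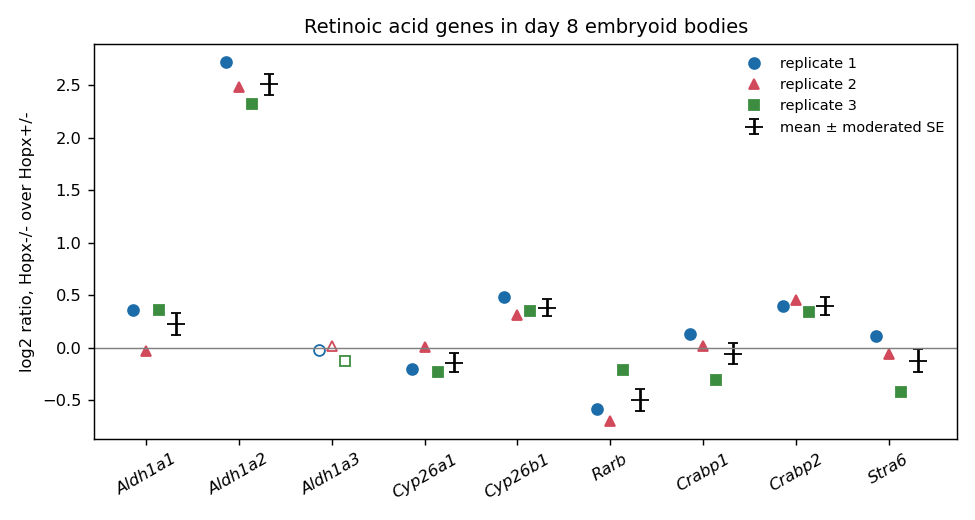
Log2 ratio of Hopx-/- over Hopx+/- (vertical axis) for the 9 genes, by array, from the brightest probe of each gene; bars are the mean ± moderated SE over 3 arrays, and open symbols mark Aldh1a3, which was not tested. Aldh1a2 sits between 2.32 and 2.72 on the 3 arrays, and every other value lies between -0.70 and 0.48.

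Aldh1a1, Aldh1a2 and Aldh1a3 encode the retinaldehyde dehydrogenases, which carry out the last step of synthesis. The normalized log2 intensity of Aldh1a2 was 10.37, 9.64 and 9.71 in null cultures and 7.65, 7.17 and 7.38 in heterozygous ones, in replicates 1, 2 and 3. All null values lay above all heterozygous values, and the gap was seen on each array. Its log2 ratios were 2.72, 2.48 and 2.32, with a mean of 2.51 (SE 0.10, n = 3, limma adjusted p = 4.37e-07). That ratio was the 43rd highest of the 19802 genes tested. It was 2.10 in the authors' deposited table and 3.14 with the scanner software's processed signals.

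Aldh1a1, the form of the dorsal retina and many adult tissues, gave 6.91, 6.56 and 7.05 in null cultures and 6.55, 6.59 and 6.69 in heterozygous ones, so that the groups overlapped. Its ratios were 0.36, -0.03 and 0.35, positive on 2 arrays, with a mean of 0.23 (95% interval from -0.0061 to 0.46, limma adjusted p = 0.0846). It passed without replicate 2, at 0.36 (limma adjusted p = 0.0307), and with a dye term, at 0.26 (limma adjusted p = 0.0304). Aldh1a3 was well above background on 1 array in null and on 2 in heterozygous RNA, with ratios of -0.02, 0.01 and -0.13 from dim signal. Of the 3 enzymes, then, a large difference was measured for Aldh1a2. Within arrays the ratio of Aldh1a2 exceeded that of Aldh1a1 by 2.36, 2.51 and 1.97. An exact sign-flip test over 3 arrays cannot give a two-sided p below 0.25, and that was the p here and for the 3 other pairs compared (adjusted p = 0.25 over 4 pairs).

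The Cyp26 enzymes hydroxylate retinoic acid and so clear it. Cyp26a1, the form induced by retinoic acid itself, gave 10.40, 10.22 and 9.99 in null cultures and 10.60, 10.21 and 10.22 in heterozygous ones. The groups overlapped, and replicate 2 showed almost no difference. Its ratios were -0.20, 0.0066 and -0.23, with a mean of -0.14 (95% interval from -0.34 to 0.060, limma adjusted p = 0.197), which turns to 0.22 with median centring without loess, again without passing (limma adjusted p = 0.106).

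Cyp26b1, which clears retinoic acid in the limb, hindbrain and gonad, gave 8.31, 8.04 and 8.40 in null cultures and 7.83, 7.72 and 8.05 in heterozygous ones. The null signal was the higher on each array, though the lowest null value and the highest heterozygous value overlapped between arrays. Its ratios were 0.48, 0.31 and 0.35, with a mean of 0.38 (SE 0.08, n = 3, limma adjusted p = 0.0042), a 1.30-fold higher signal. The call was lost with the ordinary t statistic (adjusted p = 0.0603) and with the channels as separate samples (limma adjusted p = 0.0609), and the ratio was 0.61 with median centring without loess. Within arrays Cyp26b1 exceeded Cyp26a1 by 0.68, 0.31 and 0.58.

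**Figure D2:**
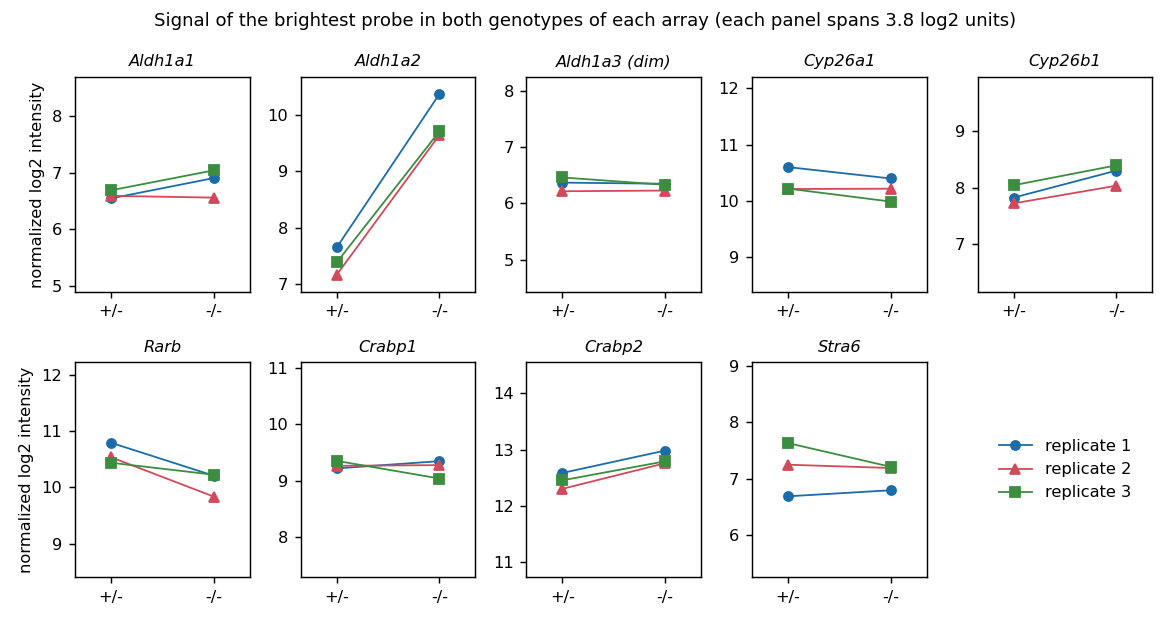
Normalized log2 intensity (vertical axis) of the brightest probe of each gene in Hopx+/- and Hopx-/- cultures, with lines joining the 2 channels of an array; every panel spans the same height. The lines of Aldh1a2 rise steeply on all 3 arrays, those of Crabp2 and Cyp26b1 rise slightly, and those of Rarb fall. Levels are not comparable between panels, since probes differ in brightness.

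Crabp1 and Crabp2 bind retinoic acid in the cytoplasm, and Crabp2 can pass it to the receptors in the nucleus. Crabp2 gave 12.98, 12.76 and 12.79 in null cultures and 12.59, 12.31 and 12.46 in heterozygous ones, without overlap. Its ratios were 0.40, 0.45 and 0.34 (SD 0.06), with a mean of 0.40 (SE 0.08, n = 3, limma adjusted p = 0.00307). The size of the rise rests on the normalization, at 0.83 with median centring without loess. In the authors' deposited table its values were 0.67, 0.69 and 0.055, so that replicate 3 was near 0 there.

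Crabp1 gave 9.35, 9.28 and 9.04 in null cultures and 9.22, 9.27 and 9.35 in heterozygous ones. Its ratios were 0.13, 0.01 and -0.31, so the arrays differed in sign, and the mean of -0.06 did not pass (95% interval from -0.29 to 0.18, limma adjusted p = 0.658, and 0.25 with median centring without loess). Within arrays Crabp2 exceeded Crabp1 by 0.27, 0.44 and 0.65. Stra6, the membrane receptor through which cells take up retinol from its blood carrier Rbp4, gave 6.80, 7.19 and 7.21 in null cultures and 6.69, 7.25 and 7.63 in heterozygous ones. Its ratios were 0.11, -0.06 and -0.42 (SD 0.27), and the mean of -0.12 did not pass (95% interval from -0.38 to 0.13, limma adjusted p = 0.361).

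Rarb, the receptor whose promoter is printed above, had 3 probes. The brightest gave 10.21, 9.84 and 10.23 in null cultures and 10.79, 10.53 and 10.44 in heterozygous ones, without overlap. Its ratios were -0.58, -0.70 and -0.21, with a mean of -0.50 (SE 0.11, n = 3, limma adjusted p = 0.00377), a 1.41-fold lower signal. The other measured probe of the same transcript fell by 0.67 (SE 0.10, limma adjusted p = 0.000483), with ratios of -0.79, -0.79 and -0.43. The probe for another Rarb transcript was not well above background in either genotype on any array.

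Replicate 3 showed the smallest fall at both Rarb probes, and in the authors' deposited table its values were -0.09 and -0.02. The fall of the brightest probe depends on the normalization: with median centring without loess its ratios were -0.16, -0.53 and 0.30, with a mean of -0.13 that did not pass (limma adjusted p = 0.485), while the other probe kept its call at -0.49 (limma adjusted p = 0.0125). It also lost its call with the ordinary t statistic (adjusted p = 0.137). Of the members with a DR5 repeat in their window, Rarb and Cyp26a1, 1 passed, and the mean of the other changes sign with median centring without loess.

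Over all genes, 31 held the repeat, 7 of these were tested, and 4 were called, 3 higher and 1 lower (57.1% beside 60.3% of all genes tested). Those that rose were Cfap45 by 0.43 (SE 0.08), Hbb-y, an embryonic beta globin, by 2.01 (SE 0.15), and Ppbp, a platelet chemokine, by 1.87 (SE 0.18). Over these 7 genes no common direction was seen, with a median of 0.20.

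By distance over the 3 array ratios, the named genes most like Aldh1a2 among 14034 compared were Sfrp1, a secreted Wnt inhibitor (distance 0.24, mean ratio 2.53), Lsp1 (0.34, mean ratio 2.38) and Dok2 (0.38, mean ratio 2.45). Those most like Rarb were Taf7l (0.03, mean ratio -0.51), Lman1 (0.03, mean ratio -0.51) and H6pd (0.05, mean ratio -0.52).

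The other genes of the pathway were taken from 3 lists. Of 22 genes for retinol supply and oxidation, 17 were tested, and 2 rose and 6 fell (median -0.12). That is 47.1% called, beside 60.3% of all genes tested. Rbp4, which carries retinol in blood, fell by 3.68 (SE 0.12, limma adjusted p = 2.24e-07), with ratios of -3.44, -4.05 and -3.54. Ttr, which holds Rbp4 in the circulation, fell by 3.13 (SE 0.11, limma adjusted p = 2.49e-07). These are the largest changes among all the pathway genes tested, and both were well above background in both genotypes on all arrays.

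No tested enzyme of the retinol step changed by 2-fold. Rdh10, which oxidises retinol to retinaldehyde in the embryo, fell by 0.53 (SE 0.08, limma adjusted p = 0.000652), Rdh14 fell by 0.61 (SE 0.09, limma adjusted p = 0.000523), and Dhrs3, which turns retinaldehyde back into retinol, fell by 0.39 (SE 0.08, limma adjusted p = 0.00341). None of these 3 passed with median centring without loess (ratios of -0.20, -0.24 and -0.0068), where 3 genes of this list were higher and 2 lower. Rbp7, a retinol-binding protein inside cells, rose by 0.51 (SE 0.10, limma adjusted p = 0.00193). It did not pass in the authors' deposited table (0.265, limma adjusted p = 0.0728) or with the ordinary t statistic (adjusted p = 0.0995).

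Of 10 further carriers, breakdown enzymes, receptors and corepressors, 9 were tested, and 2 rose and 3 fell (median 0.06). That is 55.6% called, beside 60.3% of all genes tested. Rxra, a partner receptor, fell by 1.45 at its brightest probe (SE 0.09, limma adjusted p = 3.31e-06), while another probe of the gene stood at -0.06 and did not pass. Rara fell by 0.59 (SE 0.09, limma adjusted p = 0.000474), and by 0.40 at its other probe, but stood at -0.17 with median centring without loess (limma adjusted p = 0.281). Rarg rose by 0.33 (SE 0.08, limma adjusted p = 0.008). It did not pass when replicate 2 was left out (limma adjusted p = 0.0635), and stood at 0.75 with median centring without loess (limma adjusted p = 0.000289).

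The receptor genes thus went different ways, and within arrays the ratio of Rarb minus that of Rarg was -0.88, -1.09 and -0.51. Rxrg did not pass at its brightest probe (0.12), while another probe gave 1.84 (SE 0.13, limma adjusted p = 7.43e-06). Fabp5, which carries fatty acids and can carry retinoic acid, rose by 0.73 (SE 0.10, limma adjusted p = 0.000242), and by 1.15 with median centring without loess. Its call was lost with the ordinary t statistic (adjusted p = 0.067) and with the channels as separate samples (limma adjusted p = 0.0845). With median centring without loess, which set the median over all genes at 0.23 and raised the share of calls that were higher from 50.0% to 74.0%, 6 genes of this list were higher and 1 lower. Without replicate 2, 3 genes of it were called, beside 9777 of the 19858 genes tested.

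Of 26 genes known to answer retinoic acid, 25 were tested, and 13 rose and 7 fell (80.0% called, median 0.26). Over all genes tested 60.3% were called, 30.2% higher and 30.1% lower. The list was chosen with earlier results of these data known, so its share is a description only. Hoxa2, Hoxa5, Hoxb1 and Stra8, which are 4 of the 13, were tested because they were bright enough in null cultures, and were not well above background in heterozygous ones on any array. Among the 21 genes well above background in both genotypes on all arrays, 9 rose and 7 fell, with a median of 0.06. The split also moved with the values used, at 15 higher and 4 lower under median centring without loess and 5 higher and 5 lower (median 0.13) in the authors' deposited table. Nr2f1, a nuclear receptor of atrial and neural cells, rose by 2.30 (SE 0.10, limma adjusted p = 6.81e-07), with ratios of 2.21, 2.16 and 2.54. Cdx1, a homeobox gene of posterior tissue, rose by 1.55 (SE 0.09, limma adjusted p = 2e-06). Among the anterior Hox genes, which pattern the hindbrain and neck, the largest rises were 1.34 for Hoxa3 (SE 0.10) and 1.05 for Hoxb5 (SE 0.11). Hoxb5 lost its call with the ordinary t statistic (adjusted p = 0.0697). Hoxb2 rose by 0.35 and Hoxb3 by 0.38, while Hoxa4 (0.06) and Hoxb4 (0.07) did not pass, so the Hox genes of the list did not all rise. In the authors' deposited table neither Hoxb2 (0.16, limma adjusted p = 0.397) nor Hoxb3 (0.29, limma adjusted p = 0.0555) passed. Both also lost their calls with the channels as separate samples. Another Hoxb3 probe stood at 0.16 and did not pass (limma adjusted p = 0.126). Hoxb1 had a measured signal 1.88-fold higher in null cultures (log2 ratio 0.91, SE 0.08). It entered the test through its null signal alone, so the size of that ratio is uncertain.

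Other response genes were lower in null cultures. Rarres1, named for its induction by retinoids, fell by 1.65 (SE 0.10, limma adjusted p = 2.9e-06), with ratios of -1.42, -1.78 and -1.76. The count of calls in this list fell to 8 with the ordinary t statistic, 10 in the authors' deposited table and 12 with the channels as separate samples. Calls over all genes tested fell too, from 11943 to 3998, 8160 and 8141 in these settings, so the drop is not particular to this list.

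**Figure D3:**
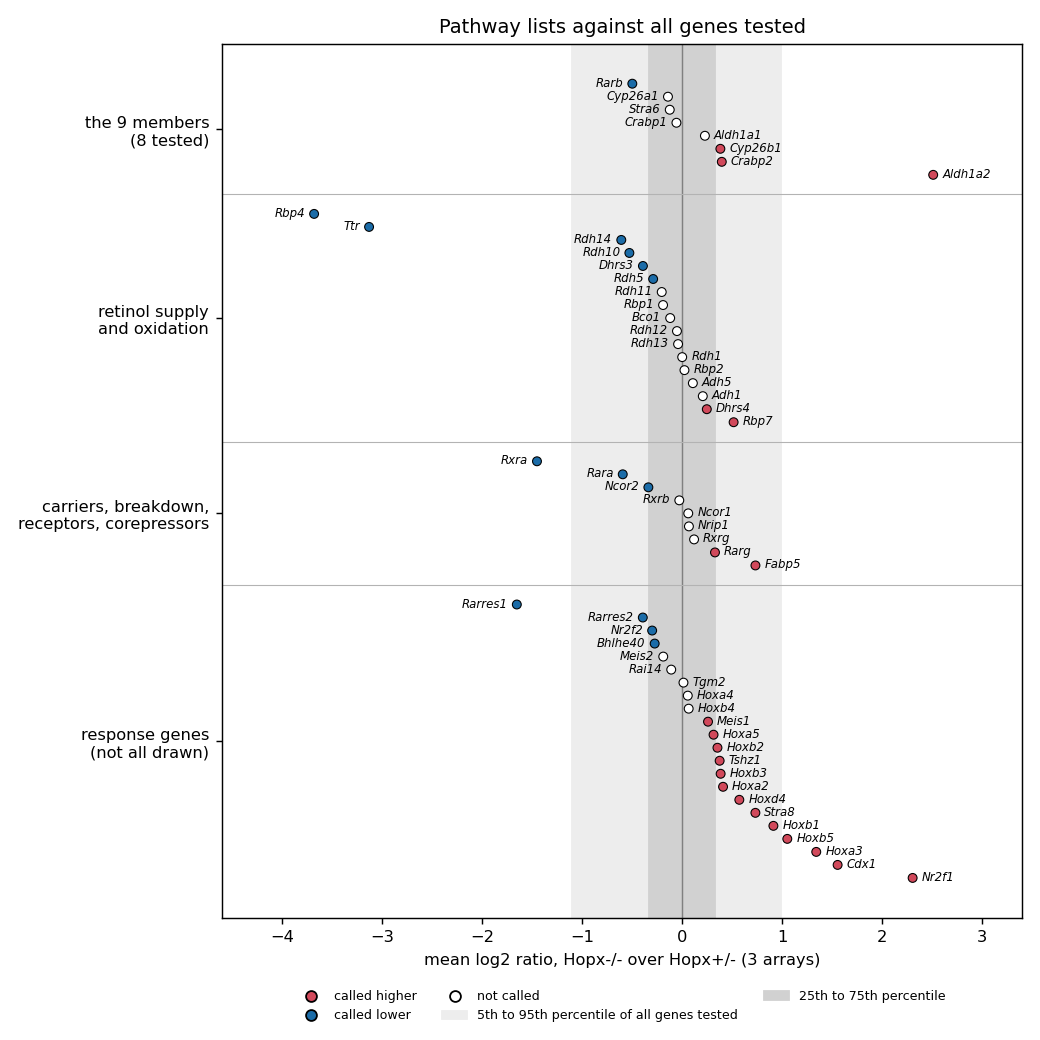
Mean log2 ratio of Hopx-/- over Hopx+/- (horizontal axis, 3 arrays) for genes tested in the 4 lists, sorted within a list, with some response genes not drawn; filled points passed the test and grey bands show the spread of all 19802 genes tested. Of the 8 members plotted, all but Aldh1a2 lie within the band that holds the 5th to 95th percentile, Aldh1a2 lies far to the right, and Rbp4 and Ttr lie far to the left.

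Marker genes of several cell types also changed, on arrays where 60.3% of all genes tested were called, 30.2% higher and 30.1% lower. In RNA of whole cultures, fewer cells of a type and less RNA per cell cannot be told apart. All 7 endoderm markers (Ttr among them) fell, and their summed linear intensity ranged from 11322 to 15759 in null and from 55211 to 72871 in heterozygous cultures. All 6 cardiomyocyte markers fell, with sums over the 5 measured on every array from 1540 to 2829 in null and from 47447 to 64990 in heterozygous cultures. All 7 endoderm markers and the 5 summed cardiomyocyte markers were well above background in both genotypes on every array, and Tnnt2 was measured on 2 arrays. Rbp4 fell too, and Rarb fell by far less, at its brightest probe without passing under median centring without loess. Whether these falls are linked was not tested.

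Of 5 tested markers of posterior and paraxial mesoderm, 4 rose (Cdx1 among them) and Cdx2 was 2.14-fold lower. Their sums were lower in null cultures although most members rose, and ranged from 2596 to 2869 in null and from 2891 to 3611 in heterozygous cultures, and T and Meox1 were not well above background in heterozygous cultures on any array. Of 4 tested epicardial markers 3 rose, with Tcf21 highest at 1.26 (SE 0.09) and Wt1 at 0.73 (SE 0.09), while Upk1b fell by 0.65 (SE 0.13), and their sums ranged from 1540 to 1945 in null and from 1173 to 1207 in heterozygous cultures. All 4 tested neuroectoderm markers rose, with sums from 3806 to 5009 against 864 to 982. Of 5 fibroblast and feeder markers 3 rose and none fell (60% called, beside 60.3% of all genes tested). Col3a1, among those that rose, had ratios of 1.18, 0.08 and 1.15. Col1a1 was measured on 2 arrays, with ratios of -0.56 and 0.18. Sums over 4 of these markers ranged from 42186 to 60195 in null and from 19530 to 26507 in heterozygous cultures. Of 4 stem cell markers 3 rose and Zfp42 fell by 1.09, with sums from 7366 to 9039 against 2888 to 3950. Of 3 Nanog probes tested, 1 was called in the direction opposite to the brightest. The part of any of these cell types in the ratios of the retinoic acid genes was not tested.

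**Figure D4:**
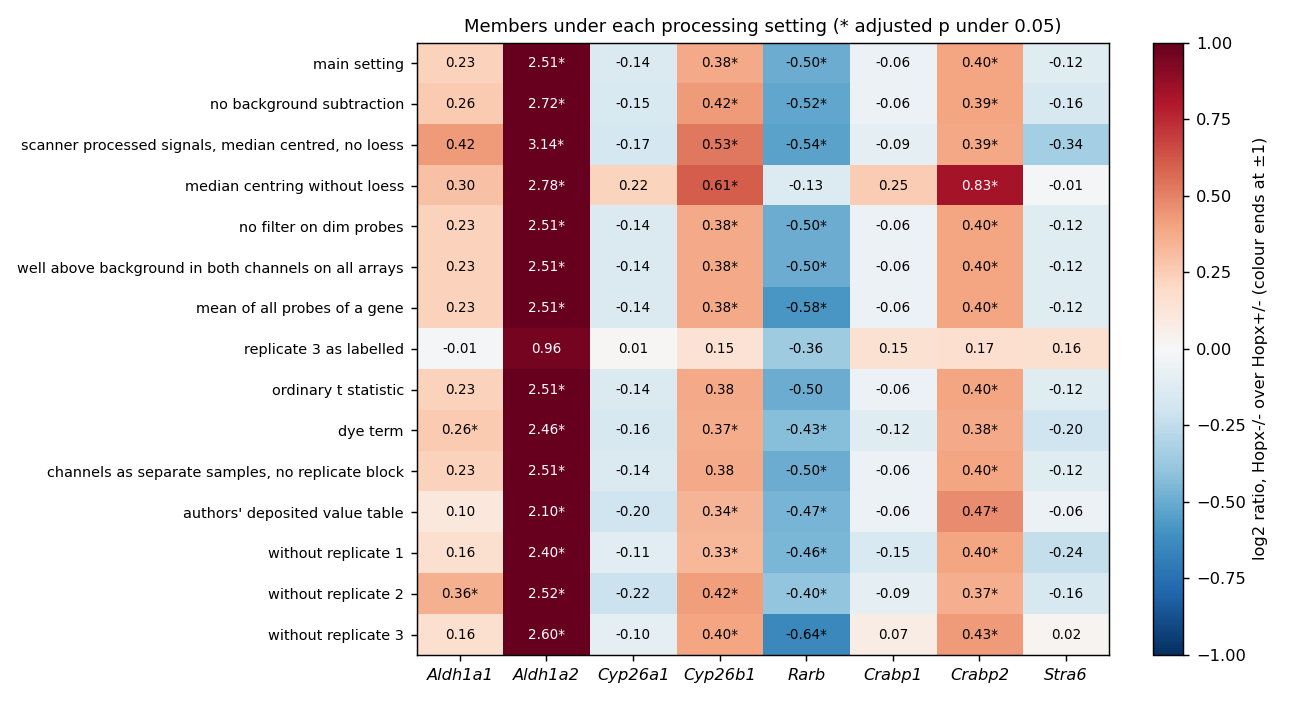
Log2 ratio of Hopx-/- over Hopx+/- for the 8 genes tested (columns) under each processing setting (rows), with a star where the adjusted p is under 0.05; colours end at ±1. Aldh1a2 stays between 2.10 and 3.14 in all settings but the one that leaves replicate 3 as labelled (0.96), and Rarb and Crabp2 shift most with median centring without loess.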

How the data were processed

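Each of 3 arrays carried RNA of both genotypes, labelled from 200 ng of total RNA per the labels' protocols. The deposited scanner output holds spot intensity (foreground and local background medians), flags, processed signals and a log10 ratio column that entered no test. Its software was Agilent Feature Extraction, at version 11.5.1.1 per the file headers and 8.5.1.1 per the submitters' processing notes. Processed values in the authors' own table were read as log2 ratios because its slopes on scanner ratios of bright spots (log2 intensity above 11) were 0.94, 0.94 and -0.93. Its column medians were -0.10, -0.11 and 0.07, and its normalization and centring are not known.

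With limma 3.58.1 in R 4.3.3, medians were corrected by normexp (offset 50) and normalized by loess within arrays, control and outlier spots having weight 0. Outlier spots were left out and spots of a probe averaged. Replicate 3 was turned, which leaves 2 dye orientations in unequal number, so part of any dye effect remains. Probes well above background in 1 genotype on all 3 arrays were kept, and 24552 were tested against 0 with lmFit and eBayes, with Benjamini-Hochberg adjustment over them all. SEs and 95% intervals are moderated. A gene took its brightest probe. Intensities per channel follow Aquantile scaling and are open to dye bias.

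RefSeq accessions (GRCm38.p6) named 28025 of 39429 probes (71.1%). The array is on mm9, so coordinates are given for RefSeq promoters alone. The members and lists were chosen with earlier results of these data known, so lists are described by counts and medians. Named are all 9 members, Hopx, the 3 genes nearest in ratio to the highest and lowest member, and listed genes with the largest and smallest ratios. The genes with a DR5 repeat, probes that disagree, and Hox genes with small ratios were named after their values were seen. Some response genes enter the counts and are not reported here by name. The test was checked on simulated data. Per the file headers all arrays share 1 slide and 1 scan.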

Additional observations from a re-analysis of the deposited data

How the results depend on the processing

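The 8 members tested were refitted with other background corrections, normalizations, filters and tests, and without each replicate. The calls and directions of Aldh1a2 and Crabp2 held under all of them except replicate 3 as labelled. That setting turns a single array against the others, and limma then called 0 genes (75 had an unadjusted p under 0.05), 0 members and 0 genes of each pathway list, with Aldh1a2 at 0.96, Crabp2 at 0.17, Cyp26b1 at 0.15 and Rarb at -0.36. Cyp26b1 and Rarb lost their calls with the ordinary t statistic, at unchanged ratios of 0.38 and -0.50, which called 3998 genes, 2 members, and 3, 2 and 8 genes of the lists for retinol supply, carriers and receptors, and response. Rarb lost its call with median centring without loess (-0.13). There 5 genes of the retinol supply list were called, beside 11548 of the 19802 genes tested, 3008 of them lower. When each channel was its own sample, with no replicate block, Cyp26b1 (0.38) lost its call. In that setting 5, 2 and 12 genes of the lists were called, beside 8141 of the 19814 genes tested. The block here is the array itself, which holds both genotypes. From the authors' deposited values, 10 response genes and 5 of the retinol supply list were called, beside 8160 of the 19797 genes tested. Aldh1a1 passed with a dye term (0.26) and without replicate 2. Leaving out each replicate in turn gave 0.16 to 0.36 for Aldh1a1. It gave 3 to 5 called genes in the list of carriers and receptors, beside 9777 to 11858 over all genes tested. The causes were not tested. Dim signal limits Aldh1a1, Aldh1a3 and Stra6, and with no filter on dim probes Aldh1a3 stood at -0.05 without passing (limma adjusted p = 0.722).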
